A study of Mus musculus with 477 samples.

Results

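The immediate early AP-1 genes examined here were *Fos*, *Fosb*, *Fosl1*, *Jun*, *Junb*, *Jund*, *Atf3*, *Egr1* and *Ier2*. These 9 of the 21004 genes in the count table were taken by name, and all 9 had reads and passed the low-count filter of every comparison. They were followed through single mammary cells of mice in which *Brca1*, a single allele of *Trp53*, or both had been deleted in the mammary epithelium.

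Luminal cells and mammary tumor cells were sorted and captured one by one on a Fluidigm C1 microfluidic system, which makes cDNA from each cell in a separate chamber. The 312 luminal and 165 tumor cells came from 11 mice in 10 groups, and the mouse was the replicate. All mice were females of mixed C57BL/6 and 129/Sv strain that carried the MMTV-Cre transgene, whose mammary tumor virus promoter drives Cre in mammary epithelium. The luminal mice also had the ROSA mT/mG reporter, which turns green where Cre has acted. The MMTV-Cre; Brca1 fl/fl genotype is written Br and MMTV-Cre; Trp53 fl/+ is written 53. Br53 stands for MMTV-Cre; Brca1 fl/fl; Trp53 fl/+. Luminal cells (L) were taken from virgin (v) mice or from mice at day 12.5 of pregnancy (p), aged 3 to 4 months, through a gate for live, CD24-high, CD29-low, green cells. Tumor cells (T) were live, CD24-positive cells of tumors that had grown to about 1 cm, with no gate for the reporter. The luminal mice were vBrL, vBr53L, v53L, pBrL-1, pBrL-2, pBr53L and p53L, where pBrL-1 and pBrL-2 shared a group. The tumors were BrT1, BrT2, Br53T1 and Br53T2, each from 1 mouse. Mice with both *Brca1* and *Trp53* intact were not analysed here, so *Brca1* wild type means 53 below.

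AP-1 is a family of dimeric transcription factors built from Fos, Jun and ATF proteins, and the makeup of the dimer sets which DNA sites it binds. Many genes of its subunits are immediate early genes, which growth factors, stress and tissue handling switch on within minutes through kinase cascades, without new protein synthesis. In the mammary gland AP-1 takes part in epithelial growth and in involution, and the enzymatic dissociation that precedes cell sorting is itself a known inducer of these genes.

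Promoters are shown first because several of these genes are known to respond through short sites just upstream of their start. RefSeq promoter windows of GRCm38.p6 matched 6 members by symbol (*Fos*, *Fosb*, *Jun*, *Junb*, *Jund* and *Atf3*), and the 250 bases upstream of each start were searched on both strands. The CRE half-site TGACG, which CREB and ATF factors bind, was present in 4 of these 6 windows and in 17.8% of all 32851 windows of the same length. For those 4, the last 150 bases before the start are given 5′ to 3′ in the direction of the gene, with the matched motifs in capitals. The windows are chr12:85473740-85473889 on the plus strand for *Fos*, chr7:19310046-19310195 on the minus strand for *Fosb*, chr8:84978749-84978898 on the minus strand for *Junb* and chr1:191183334-191183483 on the minus strand for *Atf3*.
Fos: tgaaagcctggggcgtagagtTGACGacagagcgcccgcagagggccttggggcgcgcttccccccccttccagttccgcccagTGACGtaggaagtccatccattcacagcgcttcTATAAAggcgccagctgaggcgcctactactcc
Fosb: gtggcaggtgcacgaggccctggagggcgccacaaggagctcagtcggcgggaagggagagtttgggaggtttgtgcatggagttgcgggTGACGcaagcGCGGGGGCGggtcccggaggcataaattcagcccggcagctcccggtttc
Junb: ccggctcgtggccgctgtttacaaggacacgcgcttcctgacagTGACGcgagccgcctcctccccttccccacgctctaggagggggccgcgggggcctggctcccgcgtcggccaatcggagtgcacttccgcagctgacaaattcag
Atf3: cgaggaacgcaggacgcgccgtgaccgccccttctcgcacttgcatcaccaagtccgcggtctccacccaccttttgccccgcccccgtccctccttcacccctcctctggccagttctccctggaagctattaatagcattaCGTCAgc

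*Fos* held the half-site 2 times, at bases -129 to -125 and -66 to -62 from its start, and a TATA box (TATAAA, in 12.4% of all windows) at -33 to -28. *Fosb* held the half-site at -60 to -56 and, beside it at -50 to -42, a site for EGR factors (GCGGGGGCG), which 2.57% of all windows hold. The *Junb* half-site lay at -106 to -102. In *Atf3* it lay on the opposite strand at -7 to -3, where the capitals read CGTCA, within the first bases of an annotated GENCODE transcript. The *Atf3* window lies inside the annotated gene (191170296 to 191218039), so it precedes an internal start and not the most upstream one. The CArG box of serum response factor, the AP-1 site TGACTCA and the full CRE site TGACGTCA had no match in the 6 windows. They were found in 1.47%, 4.46% and 1.55% of all windows, and the full CRE site contains the half-site. Bases further upstream than these windows were not searched, so the lack of a match says nothing about sites there.

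Depth was 40.3 to 116 per mouse, in units of 1000000 reads, and 170209 to 3550564 reads per cell, with 30 to 71 cells per mouse. Each library batch, the prefix of the cell titles, held cells of 1 or 2 mice. Only SC6 held a tumor with luminal cells (Br53T2 and pBrL-2), and only SC7 (vBr53L and pBr53L) and SC9 (v53L and p53L) held virgin with pregnant mice of 1 genotype. Both *Brca1* wild type mice were in SC9 and no other mouse was, so for luminal cells this genotype and that batch cannot be told apart. The 6 luminal markers summed to 7313 to 13003 CPM (reads of a gene per 1000000 reads) in luminal mice, with reads of all 6 in each. In tumors they summed to 512 to 6650 CPM, lowest in BrT1, where *Krt19* and *Cdh1* were at 0. BrT1 also had 5038 CPM of fibroblast markers, with reads of 6 of 7 (*Lum* at 0), against 3.41 to 101 CPM in the other tumors and 0.117 to 712 in luminal mice. Br53T2 had 5597 CPM of basal markers, with reads of all 8, against 20.96 to 282 CPM in the other tumors and 0 to 472 in luminal mice. Casein genes took 3.48% to 17.4% of the reads of luminal mice and at most 0.380% of those of tumors. In sums over a mouse, fewer cells with a transcript and less RNA per cell cannot be told apart, so shares of cells are given beside them. Intervals on shares of cells cover counting error over the cells of 1 mouse only, not the spread between mice, and those on fold changes come from the spread between mice. Reads without molecular identifiers include PCR copies.

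The 9 genes together took 0.214% of the reads in vBr53L, the lowest mouse, and 0.751% in BrT2, the highest. Their summed level was 4448 CPM ± 1434 (SD, n = 7) in luminal mice and 6753 CPM ± 764 (SD, n = 4) in tumors. The tumors BrT2, Br53T1 and Br53T2 stood above every luminal mouse, and BrT1 (5702 CPM) stood below v53L (5938 CPM). Every cell had a read of at least 1 member after thinning, which draws 100000 reads from each cell, and the median cell of a mouse had reads of 6 to 9 of the 9. Per kilobase of exon, a scale on which genes can be compared, *Fos* had the highest mean over the 11 mice, at 708 CPM per kb. *Atf3* (474 CPM per kb) and *Egr1* (357 CPM per kb) came next. The remaining 6 ranged from 87.4 CPM per kb for *Jun* to 12.99 CPM per kb for *Jund*, the lowest. The plot of levels by mouse shows each gene on its own scale.

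**Figure D1:**
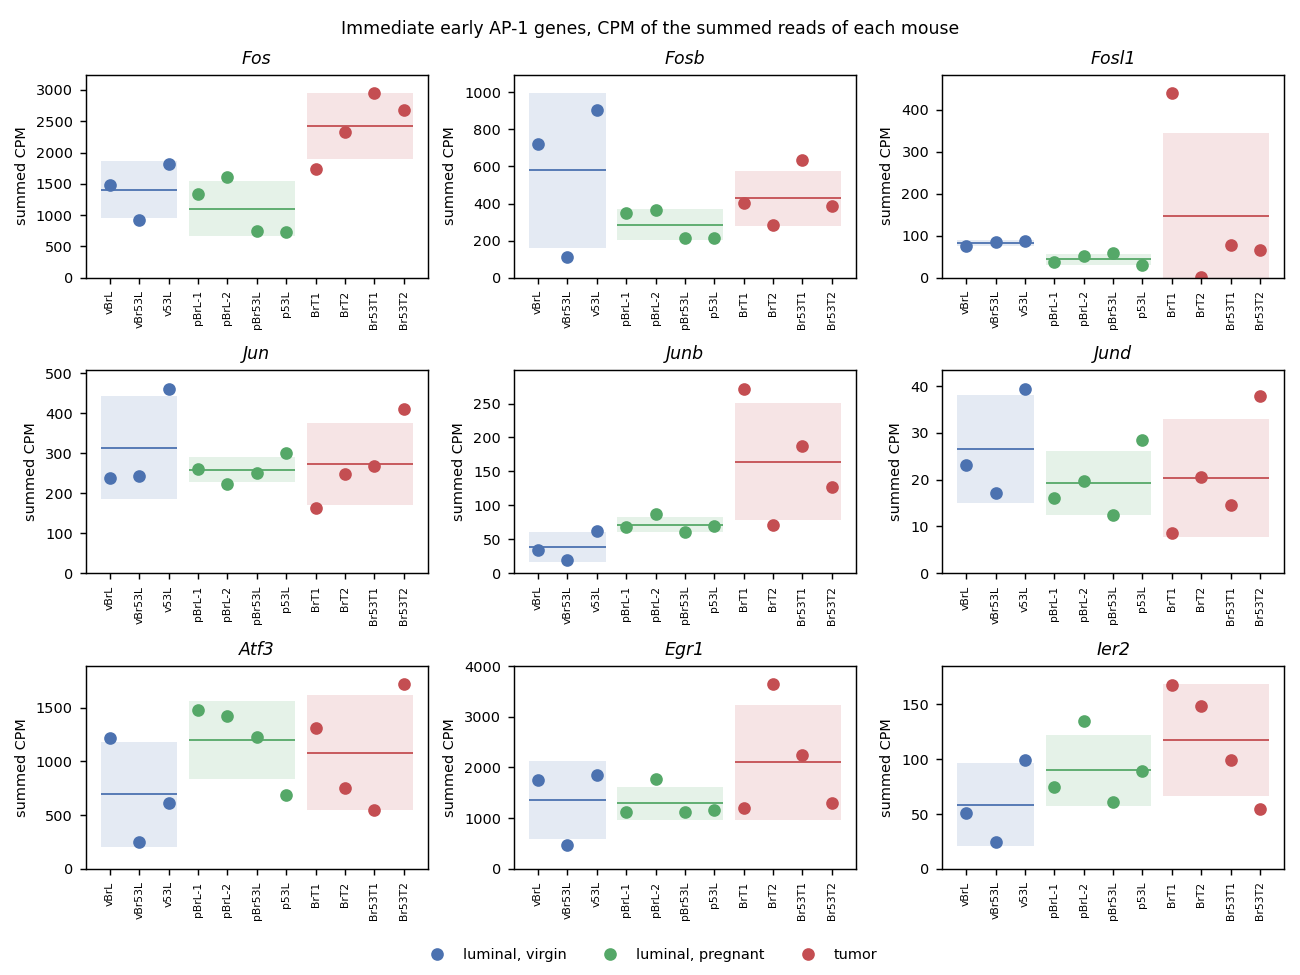
Level of each gene in each mouse, as CPM of the reads summed over its cells. Points are the 11 mice, coloured by virgin luminal, pregnant luminal or tumor, lines are group means and bands are 1 SD (n = 3, 4 and 4). *Fos* of all 4 tumors, at 1730.1 CPM or more, exceeded that of every luminal mouse but v53L, and *Fosl1* reached 439.8 CPM in BrT1 and 1.28 CPM in BrT2.

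*Fos* (chromosome 12, 85473890 to 85477273, plus strand) encodes c-Fos, the subunit most readily induced by serum and stress, which binds DNA only as a dimer with a Jun protein. Its level in luminal mice ran from 726 CPM in p53L through a median of 1338 to 1815 CPM in v53L. Among tumors, Br53T1 had 2951 CPM, Br53T2 2675, BrT2 2333 and BrT1 1730.1. All 4 tumors therefore exceeded the 5 *Brca1*-deficient luminal mice, whose highest value was 1602 CPM in pBrL-2, while v53L lay above BrT1. With casein genes left out of the total, pBrL-2 (1772 CPM) was above BrT1 (1730.2 CPM) as well. *Fos* reads were found in 84.6% to 100% of the cells of a mouse after thinning, and at full depth 0 to 5 cells of a mouse had none. The median cell had 376 CPM in vBr53L and 1837 CPM in Br53T1. Within a mouse the range was far wider, for example 0 to 7904 CPM in p53L and 11.8 to 26821 CPM in Br53T2.

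*Fosb* (chromosome 7, 19302696 to 19310051, minus strand) encodes FosB, a close relative of c-Fos. It was highest in v53L (904 CPM) and vBrL (723 CPM), yet lowest of the 11 mice in the third virgin mouse, vBr53L (109 CPM). The pregnant mice had 348 CPM in pBrL-1, 367 in pBrL-2, 213 in pBr53L and 213 in p53L. Virgin mice thus lay on both sides of the pregnant ones. The tumors lay within the luminal range, with 637 CPM in Br53T1, 404 in BrT1, 384 in Br53T2 and 286 in BrT2. After thinning, 61.5% of vBr53L cells had a *Fosb* read (95% exact interval 44.6% to 76.6%), against 77.8% to 100% elsewhere. At full depth 7 of the 39 cells of vBr53L had none, against 0 to 4 cells in each other mouse.

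*Fosl1* (chromosome 19, 5447547 to 5455946, plus strand) encodes Fra-1, a Fos protein without the strong activation domain of c-Fos, whose transcription AP-1 itself can raise. It separated the tumors most of the 9. BrT1 had 439.8 CPM and BrT2 had 1.28 CPM (64 reads). At full depth, cells with no *Fosl1* read numbered 1 of 47 in BrT1 and 34 of 37 in BrT2, and after thinning 44 and 2 cells had one. Br53T1 had 78.8 CPM and Br53T2 had 65.96 CPM, within the range of luminal mice. The thinned shares were 93.6% (95% exact interval 82.5% to 98.7%) in BrT1 and 5.41% (0.661% to 18.2%) in BrT2, where the intervals cover the cells of 1 mouse each and are no test between the tumors. BrT1 was also the tumor with the fibroblast markers given above and the lowest luminal markers, and BrT2, with 4.95 CPM of fibroblast markers and *Dcn* at 0, was not. The part of those markers in the *Fosl1* level was not tested. In virgin mice *Fosl1* was at 88.5 CPM in v53L, 85.8 in vBr53L and 75.4 in vBrL. Pregnant mice had 36.8 CPM in pBrL-1, 51.2 in pBrL-2, 58.5 in pBr53L and 29.6 in p53L, all below the virgin mice. The shares of cells with a read after thinning overlapped between the stages, at 42.9% to 52.5% in virgin and 30.99% to 52.8% in pregnant mice. At full depth the cells without a read were 16 of 35 in vBrL, 14 of 39 in vBr53L and 15 of 40 in v53L, and 42 of 71 in pBrL-1, 15 of 38 in pBrL-2, 18 of 53 in pBr53L and 22 of 36 in p53L. The gene *Ccdc85b* on the other strand shares 2767 bases with *Fosl1* and had a mean of 1.52 CPM.

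*Jun* (chromosome 4, 95049034 to 95052222, minus strand) encodes c-Jun, which can bind DNA as a dimer with itself or with Fos and ATF proteins and is activated by JNK kinases. Its level varied least of the 9 between mice, by 2.83-fold from BrT1 (163 CPM) to v53L (461 CPM). The 5 *Brca1*-deficient luminal mice lay closest together, with 237 CPM in vBrL, 243 in vBr53L, 261 in pBrL-1, 224 in pBrL-2 and 249.7 in pBr53L. Both *Brca1* wild type mice were higher, at 461 CPM in v53L and 301 CPM in p53L. Among tumors, Br53T2 had 409 CPM, Br53T1 269, BrT2 248 and BrT1 163. *Jun* was the member with a read in every cell at full depth, and after thinning 91.5% to 100% of the cells of a mouse had one. The antisense gene *Junos* shares 689 bases with it, and since the use of strand in counting was not stated, reads of the pair cannot be told apart.

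*Junb* (chromosome 8, 84974484 to 84978718, minus strand) encodes JunB, which dimerises with the same partners and can oppose c-Jun. The tumor levels were 272 CPM for BrT1, 188 for Br53T1, 127 for Br53T2 and 71.5 for BrT2. Luminal mice ran from 18.95 CPM in vBr53L through a median of 62.6 to 86.7 CPM in pBrL-2. BrT1, Br53T1 and Br53T2 were thus above all luminal mice, while BrT2 was below pBrL-2. Virgin mice were at 62.6 CPM in v53L, 34.5 in vBrL and 18.95 in vBr53L. Pregnant mice had 67.7 CPM in pBrL-1, 86.7 in pBrL-2, 61.1 in pBr53L and 69.6 in p53L, so only v53L reached into the pregnant range. After thinning, cells with a *Junb* read made up 35.9% of vBr53L and 96.7% of Br53T1, the extremes. At full depth 11 of 39 vBr53L cells had none, and every cell of pBrL-2, BrT1, BrT2 and Br53T1 had one. The gene *Prdx2* on the other strand overlaps it by 351 bases and had a mean of 440.1 CPM, so *Junb* values are uncertain to the extent that reads fell in that overlap.

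*Jund* (chromosome 8, 70698949 to 70700616, plus strand) encodes JunD, the Jun protein that many cells carry at rest and that responds least to stimuli. Its level ran from 8.59 CPM in BrT1 to 39.5 CPM in v53L. Both *Brca1* wild type mice (39.5 CPM in v53L, 28.6 in p53L) lay above all 5 *Brca1*-deficient luminal mice. Those had 23.2 CPM in vBrL, 17.1 in vBr53L, 16.2 in pBrL-1, 19.8 in pBrL-2 and 12.5 in pBr53L. Tumors ran from below the luminal range into its upper part, with 37.9 CPM for Br53T2, 20.5 for BrT2, 14.6 for Br53T1 and 8.59 for BrT1. Br53T2 was the tumor with the basal markers given above, whose part was not tested. Shares of cells with a *Jund* read after thinning ran from 46.8% in BrT1 to 87.5% in v53L, and at full depth 0 to 2 cells of each mouse had none. Thinned to 50000 reads, the shares were 29.8% in BrT1 and 80% in v53L, and that of pBr53L fell from 67.9% to 30.2%. The antisense gene model *Gm11175* shares 919 bases with *Jund*, so without a stated strand the reads of that pair cannot be told apart either.

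*Atf3* (chromosome 1, 191170296 to 191218039, minus strand) encodes a stress-induced ATF protein that joins Jun proteins and often represses. In Br luminal mice it was nearly level, at 1219 CPM in vBrL, 1476 in pBrL-1 and 1428 in pBrL-2. The Br53 pair differed strongly, with 251 CPM in vBr53L and 1224 CPM in pBr53L, although both belonged to library batch SC7. In the 53 pair the levels were 617 CPM in v53L and 685 CPM in p53L. Tumors ran from 547 CPM in Br53T1 and 751 in BrT2 to 1312 in BrT1 and 1722 in Br53T2, within and just past the luminal range. After thinning, 64.1% of vBr53L cells had an *Atf3* read (95% exact interval 47.2% to 78.8%), against 75% to 100% in the other mice. At full depth 5 of the 39 had none, and the median cell there had 40.9 CPM against 206 to 1418 CPM in the other mice.

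*Egr1* (chromosome 18, 34859823 to 34864984, plus strand) encodes a zinc finger factor outside AP-1 that serum induces together with *Fos*. Its highest levels were 3648 CPM in BrT2 and 2239.7 CPM in Br53T1, while BrT1 (1205 CPM) and Br53T2 (1304 CPM) fell among the luminal mice. Luminal mice ran from 469 CPM in vBr53L through a median of 1154 to 1849.5 CPM in v53L. The tumors therefore divided into a pair above every luminal mouse and a pair within their range. In v53L, cells without a read were as common as in no other mouse, at 9 of 40 at full depth (67.5% with a read after thinning, against 79.5% to 100% elsewhere), while its highest cell reached 12909 CPM.

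*Ier2* (chromosome 8, 84661331 to 84662852, minus strand) encodes a small nuclear protein of the immediate early class. Tumor levels were 168 CPM for BrT1, 149 for BrT2, 99.3 for Br53T1 and 54.6 for Br53T2. Luminal mice ran from 24.7 CPM in vBr53L through a median of 74.4 to 135 CPM in pBrL-2. Only BrT1 and BrT2 stood above all luminal mice. After thinning, 45% of v53L cells had an *Ier2* read, the smallest share, and 86.5% of BrT2 cells, the largest. At full depth 19 of 40 v53L cells and 2 of 37 BrT2 cells had none. The pair of pBrL mice, the sole replicates of 1 group, had 74.4 and 135 CPM, a larger relative gap than for any other member.

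That pair gives the only spread within a group. Ordering the 10 groups by level for each gene gives 9 steps between neighbours, which were set beside the difference between pBrL-1 and pBrL-2 for the same gene. Neighbours in a sorted list lie close by construction, so the counts of small steps do not show that groups were alike. For *Ier2*, 8 of 9 steps were no larger than the pBrL difference of 0.85 (log2), and for *Egr1* and *Jun* 7 of 9. For *Fos*, *Fosl1* and *Jund* it was 6 of 9. *Junb* had 4 of 9 such steps and *Fosb* 2 of 9. *Atf3*, whose pBrL mice differed by only 0.05 (log2), had 1 of 9. The *Fos* steps that were larger lay between BrT2 and v53L, between pBrL and vBr53L, and between vBr53L and pBr53L. For *Fosb*, *Junb*, *Atf3*, *Egr1* and *Ier2*, the bottom of the order was vBr53L. With 1 pair of mice this spread is itself poorly known.

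**Figure D2:**
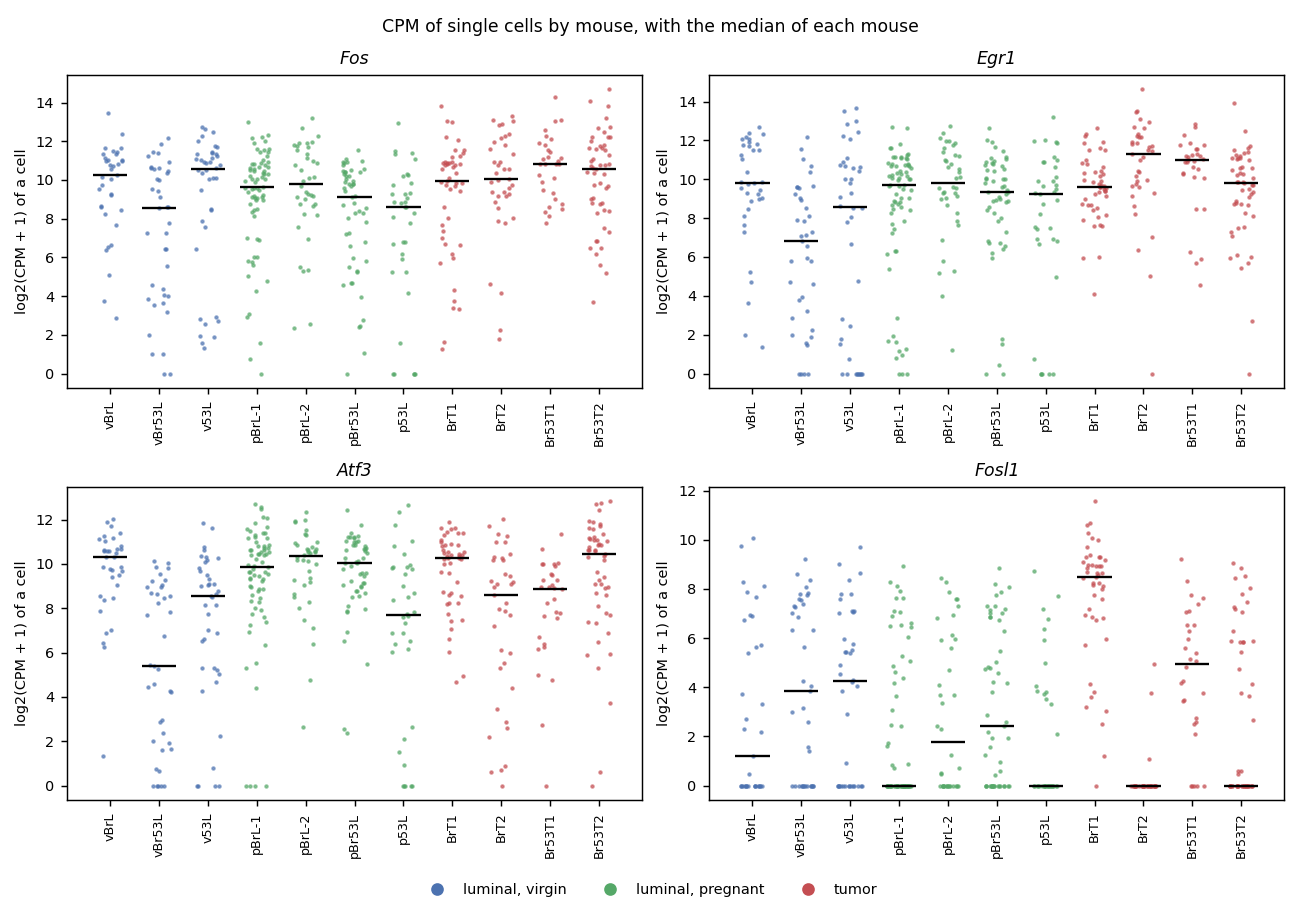
Level of *Fos*, *Egr1*, *Atf3* and *Fosl1* in every cell, as log2(CPM + 1), by mouse, with black lines at the median cell. Cells of a mouse spread over most of the range for *Fos*, *Egr1* and *Atf3*, whereas for *Fosl1* most BrT1 cells are high and 34 of 37 BrT2 cells are at 0 at full depth.

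Cells of 1 mouse, which were dissociated, sorted and captured together, differed from each other more than mice did for every member but *Fosl1* in tumors. In luminal cells, the variance of log2(CPM + 1) between mice was 4.40% (*Jun*) to 22.1% (*Fosb*) of the total, with a median of 8.59% over members against 4.14% over 8361 genes whose mean was 10 CPM or more. In tumor cells the members' median was 11.3%, against 7.64% over 9276 genes, and *Fosl1* reached 51.8%. After *Fosb*, the luminal members with the largest share between mice were *Atf3* (21.98%) and *Jund* (13.7%). The SD of log2(CPM + 1) within mice had a median of 2.72 over members in luminal cells and 2.63 over all these genes. For *Egr1* it was 3.56 there, the widest, and for *Jund* 1.29, the narrowest. In tumor cells the order was the other way, with 2.33 over members and 2.56 over all genes. With a pseudocount of 10 the medians were 1.83 over members and 1.51 over all genes in luminal cells, and 1.82 and 1.49 in tumor cells. The highest 10% of cells held 54.4% of the summed *Fos* CPM in p53L and 32.5% in v53L, the extremes for *Fos*.

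Spread inside a library batch, which no difference between batches can add to, was read from the summed members of each cell. The SD of their log2 sum was 0.99 in SC1 (BrT1) to 1.83 in SC4 (BrT2), and 1.31 to 1.57 in the 3 batches that held 2 mice. In SC6, Br53T2 and pBrL-2 differed so little that the mouse took 0.282% of the variance of the sum. In SC9 the mouse took 9.32% of it and in SC7 15.99%. *Atf3* was the member with the largest share between the mice of SC7, at 35.3%, *Fosb* that of SC9, at 25.3%, and *Ier2* that of SC6, at 9.33%. The median cell of SC7 had 2824 CPM of summed members, the lowest of the batches, and that of SC2 had 5793 CPM, the highest.

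Within SC7, the pregnant mouse pBr53L exceeded the virgin mouse vBr53L in *Atf3* by 2.28, *Junb* by 1.64, *Ier2* by 1.27, *Egr1* by 1.26 and *Fosb* by 0.96 on the log2(CPM + 1) scale. Immune markers summed to 264 CPM in pBr53L, with reads of 7 of 8, and to 65.8 CPM in vBr53L, with reads of 3 of 8 and *Ptprc* at 0, and their part in these differences was not tested. Over all virgin mice they summed to 9.72 to 76.3 CPM and over all pregnant mice to 9.93 to 264 CPM. Within SC9, the pregnant mouse p53L was instead below the virgin mouse v53L in *Fosb* (-2.08), *Fosl1* (-1.55), *Fos* (-1.32), *Egr1* (-0.68) and *Jun* (-0.62). *Fosl1* was lower in the pregnant mouse in both batches (-0.54 in SC7), as were *Fos* (-0.30 in SC7) and *Jund*, and *Junb* and *Atf3* were higher in both (0.15 for each in SC9). Within SC6, the tumor Br53T2 exceeded the luminal mouse pBrL-2 in *Jund* by 0.91, *Jun* by 0.87 and *Fos* by 0.74, and was below it in *Ier2* (-1.29) and *Egr1* (-0.44). For comparison, pBrL-1 and pBrL-2, of 1 group but different batches, differed by a median size of 0.27 over members and 0.48 over all genes of at least 10 CPM. The median size over members was 0.96 in SC7, 0.62 in SC9 and 0.54 in SC6, beside 0.70, 0.89 and 0.76 over all those genes. With 1 mouse on each side these differences have no test.

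**Figure D3:**
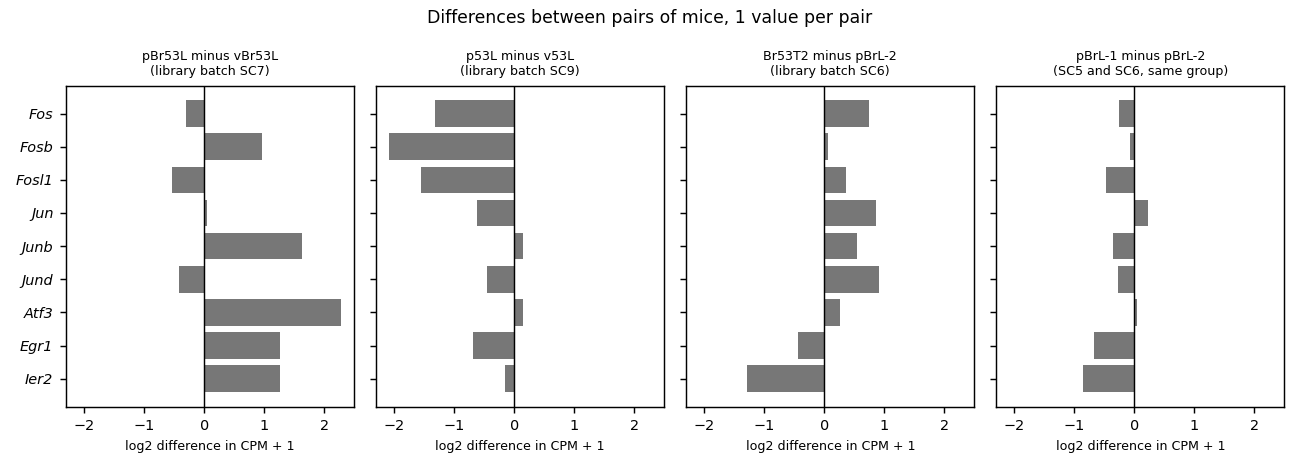
Differences between the mice of the 3 library batches that held 2 mice, and between the 2 mice of the group pBrL, in log2(CPM + 1). Each bar is 1 value with no replicate, and *Fosb* is 0.96 higher in the pregnant mouse of SC7 but 2.08 lower in that of SC9.

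The 4 tumors were set against the 5 luminal mice without *Brca1* to ask whether the genes differed between tumor cells and the luminal cells that share their deletion. No member was called by edgeR's quasi-likelihood test at an adjusted p under 0.05, where 79 of 12978 genes (0.609%) were called. DESeq2 called 0 members and 808 of 12978 genes, and limma 0 members and 369 of 13111 genes. At an unadjusted p under 0.05 there were 2 members with each of the 3 tools, with edgeR and DESeq2 *Junb* and *Fos*. At that level edgeR had 13.8% of all genes tested, DESeq2 2207 of 12978 and limma 2270 of 13111. *Junb* was 1.45 higher in tumors on the log2 scale (SE 0.47, 95% interval 0.41 to 2.495, edgeR adjusted p = 0.199). *Fos* was 0.87 higher (SE 0.32, 95% interval 0.16 to 1.58, edgeR adjusted p = 0.257), in 4 of 4 tumors above 5 of 5 luminal mice. *Fos* was the 1 member of 9 without overlap between the arms, beside 7.52% of all genes, and with casein genes left out 0 members were without overlap. Estimates of 8 of the 9 were above 0, with a median of 0.66 over members and 0.06 over all genes. *Fosl1* had an estimate of 1.05 with an interval of -1.06 to 3.16, and without BrT1 its estimate was -0.53. *Jun* (0.03), *Jund* (0.08) and *Fosb* (0.14) had estimates near 0, with intervals that reached at least 0.62 in either direction. *Egr1* (0.67), *Ier2* (0.66) and *Atf3* (-0.19) had intervals across 0, and without BrT2 the *Egr1* estimate was 0.15. With casein genes left out, the estimates were 1.43 for *Junb* and 0.85 for *Fos*. The gate and the arms cannot be told apart, and only in SC6, whose values are given above, did both arms share a library batch.

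**Figure D4:**
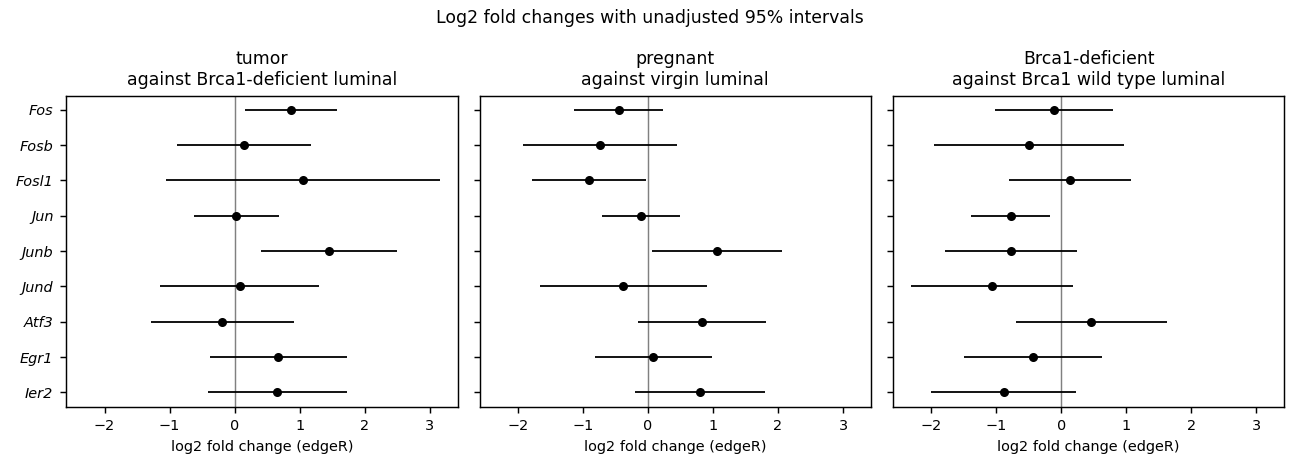
Log2 fold changes of the 9 genes from edgeR in the 3 comparisons (4 tumors against 5 luminal mice, 4 pregnant against 3 virgin mice, 5 *Brca1*-deficient against 2 wild type mice), with unadjusted 95% intervals. The intervals of *Junb* and *Fos* in tumors, *Junb* and *Fosl1* in pregnancy and *Jun* in *Brca1* deficiency leave out 0, and no gene passed the adjusted threshold.

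Pregnancy was compared with the virgin state in the 7 luminal mice (4 against 3), with genotype in the model. No member was called by edgeR, as against 2 of 12615 genes (0.0159%). DESeq2 called no member and 967 of 12615 genes, and limma no member and 82 of 12288 genes. At an unadjusted p under 0.05 there were 3 members with limma and 2 with edgeR and DESeq2, *Junb* and *Fosl1*. At that level edgeR had 9.74% of all genes, DESeq2 2527 of 12615 and limma 1535 of 12288. *Junb* was 1.06 higher in pregnant mice (log2, SE 0.43, edgeR adjusted p = 0.485). *Fosl1* was 0.91 lower (log2 change -0.91, SE 0.38, edgeR adjusted p = 0.501) and lower in 4 of 4 pregnant mice than in any virgin mouse. It was the 1 member of 9 without overlap, beside 11.9% of all genes. *Atf3* (0.83) and *Ier2* (0.80) had positive estimates, and *Fosb* (-0.74), *Fos* (-0.45), *Jund* (-0.38) and *Jun* (-0.11) negative ones, each with an interval across 0. The median over members was -0.11, against 0.12 over all genes. The *Egr1* estimate was 0.08, and it became -0.42 without vBr53L. Without that mouse *Atf3* was at 0.25 and *Fosb* at -1.45, and without p53L *Fosb* was at -0.22 and *Fos* at -0.12. With library batch in place of genotype, *Junb* was at 1.00 and *Fosl1* at -0.98, each with an interval across 0, and *Atf3* at 1.302 (edgeR adjusted p = 0.733). Those estimates rest on the mice of SC7 and SC9 alone, since each other luminal mouse was the only luminal mouse of its batch. The fibroblast markers summed to 176 to 712 CPM in virgin and 0.117 to 25.4 CPM in pregnant mice, nearly all of it *Dcn* in virgin mice. Casein genes took 3.48% to 4.09% of reads in virgin and 9.61% to 17.4% in pregnant mice. With casein genes left out, *Junb* was at 1.06 and *Fosl1* at -0.91, and both were without overlap between the stages. Basal markers summed to 0 to 108 CPM in virgin mice, with reads of 0 to 5 of 8, and to 102 to 472 CPM in pregnant mice, with reads of 6 to 8 of 8. The part of the fibroblast and basal markers in these values was not tested.

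*Brca1*-deficient luminal mice were compared with the *Brca1* wild type mice (5 against 2), with stage in the model. edgeR called 0 members and 0 of 13709 genes (0%). DESeq2 called 0 members and 518 genes, and limma 0 members and 0 of 12288 genes. At an unadjusted p under 0.05 there was 1 member with edgeR, *Jun*, beside 818 genes (5.97%). DESeq2 had 2, *Jun* and *Jund*, beside 1880 of 13709 genes, and limma had 0, beside 1095 of 12288. *Jun* had an estimate of -0.78 on the log2 scale (SE 0.27, 95% interval -1.39 to -0.17, edgeR adjusted p = 0.778), and *Jund* had an estimate of -1.07 (SE 0.55). Those were the 2 members without overlap, against 11.3% of all genes. The median over members was -0.50, against 0.13 over all genes. The other estimates ran from -0.89 for *Ier2* to 0.46 for *Atf3*. Without v53L, *Ier2* was at -0.22, *Junb* at -0.18 and *Egr1* at -0.016, and without p53L they were at -1.51, -1.34 and -0.85. Since v53L and p53L made up library batch SC9, the genotype and the batch cannot be told apart in these values.

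Among cells of the same mouse the members mostly varied together. After thinning, the Spearman correlation of each gene with the summed reads of the other 8 had a median over the 11 mice of 0.59 for *Egr1* and 0.59 for *Fos*, the highest. It was 0.54 for *Jun*, 0.51 for *Atf3*, 0.50 for *Fosb*, 0.48 for *Ier2*, 0.34 for *Junb* and 0.28 for *Jund*. These 8 had positive values in 11 of 11 mice. *Fosl1* stood apart, with a median of -0.06 and positive values in 3 mice. In Br53T1 its correlations with the other members were all positive, from 0.09 (*Jund*) to 0.44 (*Atf3*). In BrT2 only 2 cells had a *Fosl1* read after thinning, so its value there says little. The closest pairs were *Fos* with *Egr1* (median 0.49, 0.37 to 0.71 over mice), *Fos* with *Jun* (0.48) and *Fos* with *Atf3* (0.47). *Fos* with *Fosl1* had a median of -0.18 and was positive in 2 of 11 mice. The points are 30 to 71 cells of a mouse that share its batch, dissociation and base of library depth. With reads per cell the members' medians were -0.19 to -0.01, so none was positive, after thinning to equal depth. With genes detected per cell they ran from -0.11 (*Jund*) to 0.12 (*Ier2*). They were positive for *Fos*, *Fosb*, *Junb*, *Atf3*, *Egr1* and *Ier2* and negative for *Fosl1*, *Jun* and *Jund*.

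**Figure D5:**
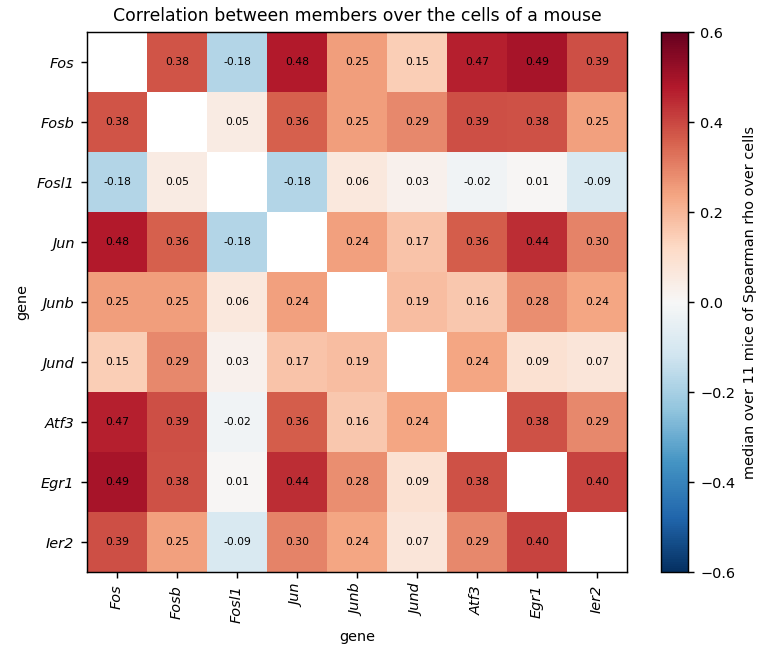
Spearman correlation of each pair of genes over the cells of a mouse, thinned to 100000 reads, as the median over 11 mice. The square of *Fos*, *Fosb*, *Jun*, *Atf3*, *Egr1* and *Ier2* runs from 0.25 to 0.49, and the row of *Fosl1* from -0.18 to 0.06.

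The genes whose cell-to-cell pattern was most like the summed members were sought among 6691 other genes read in at least 20% of cells after thinning. By mean correlation over the 11 mice, the 10 closest were *Zfp36* (0.48), *Btg2* (0.42), *Dusp1* (0.37), *Zfp36l1* (0.31), *Klf6* (0.31), *Nr4a1* (0.30), *Nfkbia* (0.27), *Bhlhe40* (0.26), *Rhob* (0.26) and *Csrnp1* (0.24). The median gene had -0.01. *Zfp36* encodes an mRNA decay factor, *Dusp1* a phosphatase of MAP kinases and *Nr4a1* an orphan nuclear receptor. *Zfp36* was positive in 11 of 11 mice (0.29 to 0.70), while *Btg2* and *Dusp1* were positive in 10 of 11. Of the 10, 9 were on lists of immediate early or feedback genes written for this work. As the lists were chosen with earlier results of these data known, this count is a description and no independent evidence. The share of list genes among the 6691 was not taken.

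Those lists place the members in their pathway. Of 33 other immediate early genes tested in tumors, edgeR called 0, and at an unadjusted p under 0.05 there were 11 higher and 2 lower, beside the 13.8% of all genes in either direction given above (9.74% for pregnancy and 5.97% for *Brca1* deficiency), a background that holds for each list that follows. Their median log2 change was 0.35, against 0.06 for all genes. *Klf6*, a zinc finger factor and the most abundant of them, had an estimate of -1.17 (edgeR adjusted p = 0.147), in contrast to most of its list. *Btg1* (0.10), *Btg2* (-0.07) and *Nfkbia* (0.92) were the next most abundant. For pregnancy, 7 of the 33 were higher and 1 lower at that level, with a median of 0.48 against 0.12, and *Btg2*, an antiproliferative factor, had an estimate of 1.17. For *Brca1* deficiency there were 0 in either direction.

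The 17 feedback inhibitors, phosphatases and Sprouty-type proteins that dampen the kinases, had 5 higher and 0 lower in tumors at an unadjusted p under 0.05 and 0 called. *Dusp1* had 815 CPM in BrT1, 647 in Br53T1, 454 in Br53T2 and 262 in BrT2, against 41.7 to 278 CPM in luminal mice, with an estimate of 1.61 (edgeR adjusted p = 0.175). *Errfi1* (0.09), *Dusp6* (0.41) and *Spry2* (0.59), the other abundant ones, had smaller estimates. In pregnancy 1 was higher and 1 lower, and in *Brca1* deficiency 0. The 26 upstream kinases and factors, which relay the signal to the *Fos* and *Egr1* promoters, had 1 higher and 2 lower in tumors, 1 and 1 in pregnancy, and 1 and 0 in *Brca1* deficiency, with 0 called, shares near or below those of all genes. Their most abundant genes were *Nras* (-0.12 in tumors), *Map2k3* (-0.96), *Braf* (-0.03) and *Mkl2* (-0.68).

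Of the 17 tested AP-1 and CREB/ATF family genes outside the members, *Crem* was called lower in tumors and no other was called, beside 0.609% of all genes. At an unadjusted p under 0.05, 2 of the 17 were lower, *Crem* among them, and 0 were higher. *Crem*, which encodes a cAMP-responsive factor that binds the CRE site and in some forms represses it, had 70.6 CPM in Br53T2, 52.6 in BrT1, 46.3 in BrT2 and 41.4 in Br53T1. The *Brca1*-deficient luminal mice had 117 to 147 CPM, with no overlap. Its log2 change was -1.46 (SE 0.28, edgeR adjusted p = 0.0471), just inside the threshold, and 7 of 19 alternatives called it, with adjusted p from 5.64e-05 to 0.448. *Atf4* (-0.48), *Fosl2* (-0.92), *Mafg* (0.22) and *Atf2* (-0.19), the other most abundant of the family, did not pass. In pregnancy and in *Brca1* deficiency 0 of the family were called.

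Among the AP-1 target genes, 10 of 14 were tested in tumors, with 0 called and 4 higher and 0 lower at an unadjusted p under 0.05. *Cd44*, a hyaluronan receptor, had an estimate of 2.90 in tumors and -1.89 in pregnancy (edgeR adjusted p = 0.184 and 0.229). *Spp1* (1.14), *Mt1* (-1.02) and *Mt2* (-0.44), the other abundant targets, had tumor estimates of both signs. In *Brca1* deficiency 1 target was lower at that level, *Spp1* (-2.85), and 0 were higher. Heat shock genes, a list that stress and dissociation also raise, had 4 of 12 higher and 0 lower in tumors and 5 higher and 0 lower in pregnancy at that level, with 0 called in each. In *Brca1* deficiency 1 was lower, *Dnaja1* (-1.17). The abundant ones had tumor estimates of 0.30 for *Hsp90ab1*, 0.54 for *Dnaja1*, -0.07 for *Hspa8* and 0.57 for *Hsp90aa1*. Their summed level was 4032 to 9651 CPM in luminal mice and 6226 to 13904 CPM in tumors. vBr53L, the mouse with the lowest summed members, had 6525 CPM of heat shock genes, and v53L, with the highest summed members of the luminal mice, had 4032 CPM, the lowest. BrT2 was the highest mouse in both. Among the cells of a mouse, the 12 heat shock genes had mean correlations with the summed members of 0.050 (*Hspd1*) to 0.24 (*Hspa1a*), all positive, over 10 or 11 mice.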

How the data were processed

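Reads of single C1 cells were trimmed with Trim Galore 0.4.1, aligned to mm10 with STAR 2.5.3a and counted per gene with Subread 1.5.3, per the submitters' notes and methods, with sickle before trimming. The deposited values are raw counts per gene and cell without molecular identifiers. The annotation and the use of strand are not given in the sources used here. The authors looked for doublets under the microscope, and none were called here. No cell repeated another's values.

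Counts were summed per mouse (11 mice) and tested with edgeR 4.0.16 in R 4.3.3 (TMM, filterByExpr, quasi-likelihood test, Benjamini-Hochberg over all genes tested). Intervals on fold changes are at 95%. Separate animals were the replicates. CPM per cell and per mouse are at full depth. Shares of cells with a read and correlations used cells thinned to 100000 reads, which left out 0 cells, and counts of cells without a read are at full depth where stated. Shares have exact (Clopper-Pearson) intervals. Positions and exon lengths are those of GENCODE vM21 (GRCm38, which is mm10). The test was tried on simulated data.

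Alternatives were RLE factors, DESeq2 1.42.0, limma 3.58.1 on the mean CPM over cells (log2 with a pseudocount of 1), no filter, cells with at least 2000 genes, 30 cells per mouse, casein genes left out, other covariates or arms, thinning to 50000 reads, a pseudocount of 10, and leaving out each mouse. From each list, called genes and up to 4 with the highest mean CPM were named. The named genes of highest likeness were the 10 with the largest mean correlation. The members and lists were chosen with earlier results of these data known.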

Additional observations from a re-analysis of the deposited data

Results flagged for a closer look

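Among 27 sets of values (9 genes in the tumors, the *Brca1*-deficient luminal mice and the pregnant mice), 2 held a mouse far from the others, where chance gives about 1 in 20, or 1.35. *Atf3* of vBr53L was 251 CPM, and the nearest of the other *Brca1*-deficient luminal mice had 1219 CPM. *Egr1* of pBrL-2 was 1774 CPM, and the nearest other pregnant mouse had 1154 CPM.

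The difference of pregnant minus virgin had opposite signs in the Br53 mice (SC7) and the 53 mice (SC9) for 4 genes, in log2(CPM + 1). For *Fosb* it was 0.96 and -2.08, for *Egr1* 1.26 and -0.68, for *Ier2* 1.27 and -0.16, and for *Jun* 0.039 and -0.62. With 1 mouse on each side, the difference between genotypes was not tested, and genotype and library batch cannot be told apart.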

How the results depend on the processing

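No member was called in any comparison under any alternative. Of the log2 changes of the 9 genes, 153 of 171 kept their sign for tumors, 138 of 144 for pregnancy and 127 of 135 for *Brca1* deficiency. It was kept throughout by *Fos*, *Junb*, *Egr1* and *Ier2* in tumors, by all but *Jun* and *Egr1* in pregnancy, and by *Jun*, *Junb*, *Jund*, *Egr1* and *Ier2* in *Brca1* deficiency. The cause of the changes was not tested.

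For tumors, 808 genes were called by DESeq2, 129 without the low-count filter, 369 by limma on mean CPM, 213 against all 7 luminal mice, 0 against virgin mice alone and 44 against pregnant mice alone. Signs turned with limma for *Fosl1* (-0.43), *Jund* (-0.060) and *Atf3* (0.029), with all 7 luminal mice for *Fosb* (-0.17), *Jun* (-0.28) and *Jund* (-0.36), and with virgin mice alone for *Fosb* (-0.12), *Jund* (-0.14) and *Atf3* (0.40). Leaving out 1 mouse gave 11 (without pBrL-1) to 94 called genes, with 29 without pBrL-2, 19 without pBr53L, 50 without BrT1 and 44 without BrT2. The log2 change then ran from -0.10 to 0.58 for *Fosb*, -0.53 to 1.45 for *Fosl1*, -0.22 to 0.22 for *Jun*, -0.37 to 0.34 for *Jund*, -0.49 to 0.029 for *Atf3*, 0.15 (without BrT2) to 0.88 (without BrT1) for *Egr1* and 0.43 (without vBr53L) to 1.00 (without pBrL-2) for *Ier2*.

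For pregnancy, DESeq2 called 967 genes, the unfiltered test 366, 30 cells per mouse 12, limma 82, no covariate 17 and library batch as covariate 42. *Egr1* turned with limma (-0.011) and with no covariate (-0.070). Leaving out 1 mouse gave 0 (without pBr53L, either pBrL mouse, or vBrL) to 4 (without vBr53L) called genes, -0.24 to 0.055 for *Jun* and -0.42 to 0.35 for *Egr1*. It gave 0.25 (without vBr53L) to 1.27 (without vBrL) for *Atf3*, -1.45 (without vBr53L) to -0.22 (without p53L) for *Fosb*, -0.76 (without vBrL) to -0.12 (without p53L) for *Fos* and 0.54 (without vBr53L) to 1.16 (without p53L) for *Ier2*.

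For *Brca1* deficiency, DESeq2 called 518 genes and the unfiltered test 10. *Fos* turned with limma (0.010), and *Fosl1* with 30 cells per mouse (-0.11) and with no covariate (-0.075). Leaving out 1 mouse gave 0 to 127 called genes, with 2 without v53L and 127 without p53L, where the lone wild type mouse is assumed to vary like the others. The log2 change ran from -0.70 to 0.53 for *Fos*, -1.24 to 0.31 for *Fosb*, -0.24 to 0.51 for *Fosl1* and -0.12 to 0.81 for *Atf3*. It ran from -1.51 (without p53L) to -0.22 (without v53L) for *Ier2*, from -1.34 (without p53L) to -0.18 (without v53L) for *Junb*, from -0.87 (without vBrL) to -0.016 (without v53L) for *Egr1*, and from -1.05 (without p53L) to -0.51 (without v53L) for *Jun*.

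Thinning to 50000 reads moved 13 of 99 shares of cells beyond their intervals. Virgin and pregnant mice shared a library batch only in SC7 and SC9. The fit with library batch as covariate, given above, pairs those mice and draws on no others for the pregnancy estimate. The small number of mice, 2 in the smallest arm, limits the precision.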
